A study of Mus musculus with 8 samples.

Results

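The mitochondrial ribosomal protein genes were taken as every listed gene whose symbol is Mrpl or Mrps followed by a number and at most 1 further letter. This gave 78 of the 17631 genes in the comparison, 29 named for the small subunit (Mrps) and 49 named for the large subunit (Mrpl). The choice used symbols only and no measured value. RNA was sequenced from the apical part of lower first molars of C57BL/6 mice at postnatal day 7.5, from 4 mutant and 4 control libraries. Mutant mice were Gli1-CreERT2;Runx2fl/fl and control mice were Runx2fl/fl, so both groups carried the floxed Runx2 alleles and the mutants alone carried the inducible recombinase, which is active only in cells that express Gli1. Tamoxifen was injected into the peritoneum on postnatal day 3.5, with 1.5 mg for each 10 g the animal weighed, and the labels give the same treatment for both groups. The comparison asks which transcripts differ in the growing tooth root after Runx2, a transcription factor needed for bone formation, is deleted from Gli1-expressing progenitors. The tissue piece also holds cells in which the recombinase is not active, and the design does not let the driver be told apart from the deletion.

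Mitochondria carry their own ribosomes, which translate the few mRNAs encoded by mitochondrial DNA into core subunits of the respiratory chain and ATP synthase. The ribosomal RNAs are transcribed inside the organelle, whereas every ribosomal protein is encoded in the nucleus, made in the cytosol and imported. Some of these proteins descend from bacterial ribosomal proteins and others were added during mitochondrial evolution. The small subunit binds mRNA and decodes it, and the large subunit forms the peptide bonds.

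The authors' deposited table gives 1 mean of normalised signal per group and gene, with a p-value for mutant against control and its adjusted p. It holds no values per library, so no spread between libraries, depth or overlap between groups can be stated for any gene. Whether the signal is divided by gene length is not given in the sources used here, so levels are not compared between genes. The group means sum to 955256 in mutant against 1050684 in control molars when added over the table. Genes of odontoblasts and ameloblasts were present, with Dspp at 7360 in mutant against 7714 in control molars and Amelx at 112174 in mutant against 174946 in control molars. Runx2 had means of 65.1 in mutant against 105.5 in control molars (adjusted p = 0.0646 in the authors' deposited table), and Gli1, the locus of the driver, had 19.9 in mutant against 38.8 in control molars (adjusted p = 0.0228).

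No mitochondrial ribosomal protein gene passed the authors' adjusted p of 0.05, the threshold used throughout, while 139 of all 17631 genes did (0.788%). Of all genes, 0.318% passed as lower and 0.471% as higher in the mutant. Most members nevertheless had a slightly lower mean in the mutant on the deposited scale. Of the 78 members, 60 had a lower and 18 a higher mean in the mutant. When each group was divided by its total signal, a scaling that shifts every gene by 0.14 in log2, 24 were lower. With the 10 most abundant genes left out of the totals, 60 were lower. The totals hold 6 ameloblast genes that summed to 177014 in mutant against 260990 in control molars. Over all genes, 49.4% had a lower and 50.6% a higher mean, and these shares were 52.8% and 47.2% among the 8816 genes at or above the median level of the table (11.8, by the larger group mean). Of the 67 members that reached that level, 55 were lower. The median log2 ratio of mutant over control was -0.084 for the members (interquartile range -0.17 to -0.013) and 0.0033 for all genes. The distance between those medians does not depend on the scaling. The summed means of the members were 1514 in mutant against 1624 in control molars, a ratio of 0.932. The same ratio over all genes was 0.909.

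The differences within the family were small. The log2 ratio of 41 of the 78 members lay within 0.1 of 0, and the extremes were -0.34 for Mrps34 and 0.25 for Mrps25. A difference of more than 1.2-fold on the deposited scale was seen in 6 members, all lower in the mutant, which is 7.69% of the family. Among all genes 32.9% differed by that much, and 18.9% of the genes at or above the median level. At an unadjusted p under 0.05, 11 members were lower (14.1%) and none was higher. The same rule took 9.4% of all genes as lower and 9.89% as higher. Among genes at or above the median level it took 13.1% as lower and 11.5% as higher, and of the 67 members at that level 11 were lower (16.4%). The share of low p-values on the lower side was therefore near that of genes at or above the median level. That level is a filter on signal, for which a length correction is not stated.

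**Figure D1:**
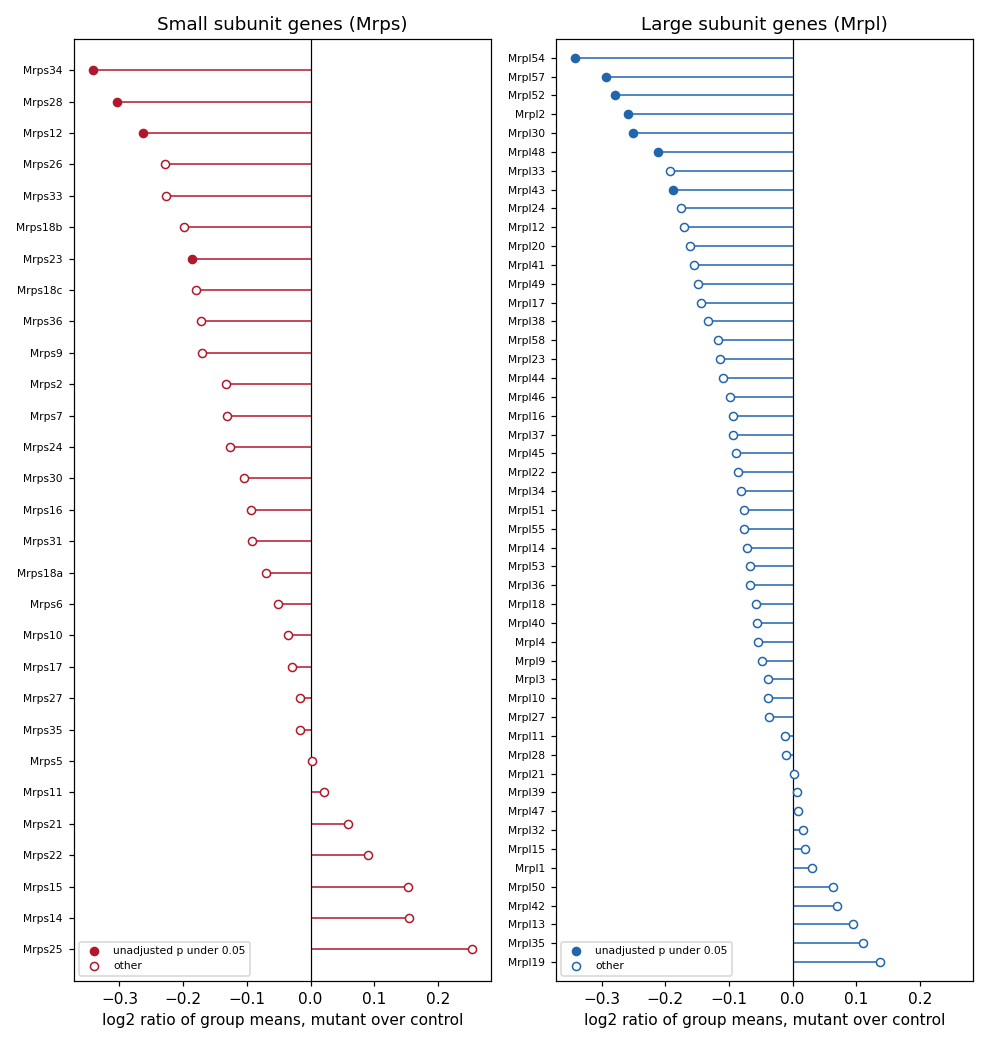
Log2 ratio of the authors' group means, mutant over control, for the 29 small subunit genes (left) and the 49 large subunit genes (right), 1 point per gene, filled where the unadjusted p is under 0.05. Most points lie left of 0 on the deposited scale, from -0.34 for Mrps34 to 0.25 for Mrps25, whereas 24 of 78 would lie left of 0 after division by total signal. With the 10 most abundant genes left out of that total, 60 would.

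The lowest p-value in the family belonged to Mrps34, which encodes a small subunit protein found in mitochondria and not in bacteria (GRCm38, chr17:24895116-24897502, plus strand). Its mean was 29.0 in mutant against 36.7 in control molars, a 1.27-fold lower level, where p was 0.00286 before and 0.0914 after adjustment in the authors' deposited table. Mrps34 was the 1 member under an adjusted p of 0.1, where 1.63% of all genes were called on the lower and 2.01% on the higher side. Of its exonic bases, 63.4% are shared with Mapk8ip3 on the opposite strand, a gene with means of 13.6 in mutant against 18.2 in control molars, and 37.0% with Nme3 on the same strand, with 6.17 in mutant against 6.75 in control molars. How reads in shared bases were counted is not given, so part of the value of Mrps34 may come from its neighbours' reads.

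Next came Mrpl52 (chr14:54426909-54429756, plus strand), a large subunit protein of mitochondria, with means of 47.8 in mutant against 58.0 in control molars (adjusted p = 0.103 in the authors' deposited table). Mrpl54 (chr10:81264713-81266934, minus strand), another protein added to the large subunit in mitochondria, had means of 30.3 in mutant against 38.4 in control molars (adjusted p = 0.114 in the authors' deposited table). Mrps12 (chr7:28739641-28741820, minus strand), the homologue of a bacterial protein at the decoding centre, had means of 17.7 in mutant against 21.3 in control molars (adjusted p = 0.120 in the authors' deposited table). Log2 ratios of these 3 genes lay between -0.34 and -0.26, and they share no exonic bases with another listed gene. Mrpl30 (chr1:37890477-37898535, plus strand), of a bacterial family, had means of 20.5 in mutant against 24.4 in control molars (adjusted p = 0.129 in the authors' deposited table). Mrpl43, a mitochondrial addition, stood at 31.3 in mutant against 35.6 in control molars (adjusted p = 0.192 in the authors' deposited table). It shares 33.4% of its exonic bases with Twnk on the opposite strand. Mrpl57, a short mitochondrial addition, stood at 13.3 in mutant against 16.3 in control molars (adjusted p = 0.198 in the authors' deposited table). Up to this point 7 members were under an adjusted p of 0.2, where 6.3% of all genes were called on the lower and 6.79% on the higher side. Mrps28, the relative of bacterial protein S1, followed with 13.2 in mutant against 16.3 in control molars (adjusted p = 0.206 in the authors' deposited table). None of these genes passed. The 11 with an unadjusted p under 0.05 were completed by Mrpl48, with 27.3 in mutant against 31.6 in control molars, Mrps23, with 25.4 in mutant against 28.9 in control molars, and Mrpl2, with 21.1 in mutant against 25.2 in control molars. Mrpl48 has a pseudogene copy and shares 8.68% of its exonic bases with Rab6a, whose means were 164.3 in mutant against 170.7 in control molars.

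**Figure D2:**
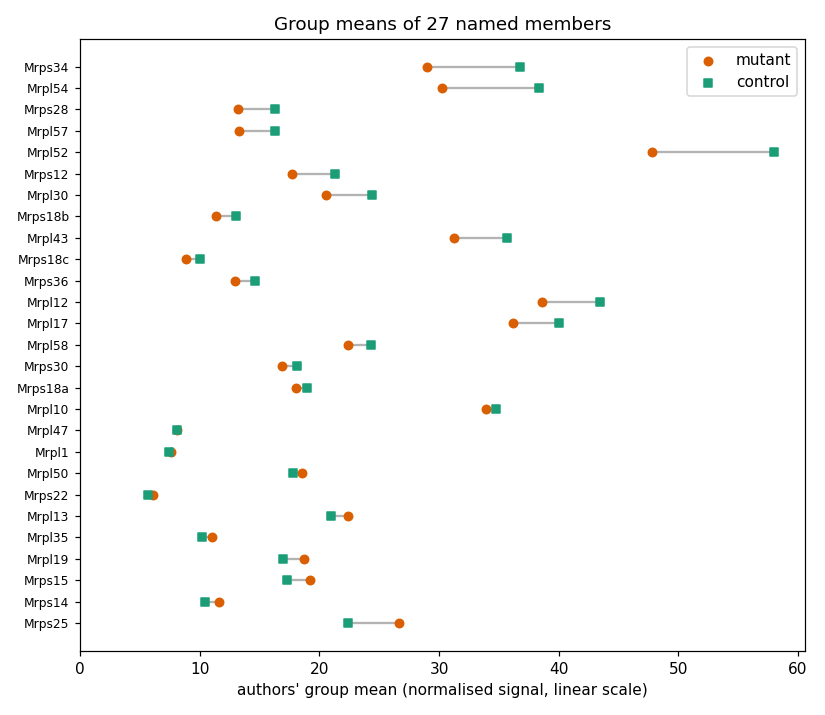
Authors' group means (normalised signal, linear scale from 0) of the 27 members named by the rules given under processing, with mutant as circles and control as squares, ordered by log2 ratio from the lowest at the top. Members named only in addition to those rules, such as Mrpl48, Mrps23 and Mrpl2, are not shown. The pair of points is farthest apart relative to its level for Mrps34 and Mrpl54, and Mrps25 at the bottom has the higher mean in the mutant; levels of different genes are not comparable because a length correction is not stated.

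The other side of the family was less marked. Mrps25 (chr6:92169525-92184033, minus strand), a small subunit protein of mitochondria, had the highest ratio of the family, with means of 26.7 in mutant against 22.4 in control molars (1.19-fold, unadjusted p = 0.0665, adjusted p = 0.291 in the authors' deposited table). It shares 69.8% of its exonic bases with Nr2c2 on the opposite strand, whose means were 63.5 in mutant against 56.7 in control molars. Mrpl19, of a bacterial family, stood at 18.7 in mutant against 17.0 in control molars (adjusted p = 0.364 in the authors' deposited table), and 36.0% of its exonic bases are shared with Gcfc2. Mrps15 and Mrps14, both homologues of bacterial small subunit proteins, had log2 ratios of 0.15 each, with adjusted p-values of 0.393 and 0.511 in the authors' deposited table. Mrpl13, Mrpl35, Mrpl50 and Mrps22 lay between 0.064 and 0.11 in log2, with adjusted p-values of at least 0.532 in the authors' deposited table. Mrpl13 and Mrpl50 had log2 ratios of -0.021 each once a trend with transcript length and GC content, treated further on, was taken off. No member on this side had an unadjusted p under 0.05.

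Sequences upstream of the extremes are shown because the family leaned to one side on the deposited scale, and letters known from other studies as binding motifs of NRF1, ETS factors such as GABPA, and YY1, regulators of nuclear genes for mitochondria, can be looked for in them. RefSeq windows from 250 bases before to 50 after the most upstream start of a gene (GRCm38.p6) were found for 69 of the 78 members. No window was in that table for Mrps34, Mrpl54, Mrps28, Mrpl19, Mrpl38, Mrpl13, Mrpl4, Mrpl15 and Mrps35. Capitals mark the NRF1 motif (GCGC, then 1 base of any kind, then TGCGC), the ETS motif (CCGGAAG) and the YY1 motif (AAGATGGC), each on either strand.
Mrpl52, chr14:54426659-54426958, plus strand: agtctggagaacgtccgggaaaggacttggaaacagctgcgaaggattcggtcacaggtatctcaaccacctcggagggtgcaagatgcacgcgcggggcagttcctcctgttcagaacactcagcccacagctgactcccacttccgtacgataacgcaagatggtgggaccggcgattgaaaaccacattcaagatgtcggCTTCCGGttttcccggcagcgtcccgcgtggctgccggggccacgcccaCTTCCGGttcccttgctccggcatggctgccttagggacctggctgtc
Mrps12, chr7:28741772-28742071, minus strand: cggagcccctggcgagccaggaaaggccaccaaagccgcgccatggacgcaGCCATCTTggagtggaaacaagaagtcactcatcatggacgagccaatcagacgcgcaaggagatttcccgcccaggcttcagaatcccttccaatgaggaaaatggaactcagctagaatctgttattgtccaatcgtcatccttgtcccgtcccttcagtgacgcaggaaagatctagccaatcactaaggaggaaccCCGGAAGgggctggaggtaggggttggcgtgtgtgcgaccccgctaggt
Mrpl30, chr1:37890227-37890526, plus strand: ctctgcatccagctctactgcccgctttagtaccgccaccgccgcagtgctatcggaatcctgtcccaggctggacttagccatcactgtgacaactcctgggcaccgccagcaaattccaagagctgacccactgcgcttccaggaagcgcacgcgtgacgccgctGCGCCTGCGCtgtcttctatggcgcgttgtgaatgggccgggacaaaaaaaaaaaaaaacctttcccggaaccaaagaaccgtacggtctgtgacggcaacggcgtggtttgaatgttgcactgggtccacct
Mrpl57, chr14:57825989-57826288, plus strand: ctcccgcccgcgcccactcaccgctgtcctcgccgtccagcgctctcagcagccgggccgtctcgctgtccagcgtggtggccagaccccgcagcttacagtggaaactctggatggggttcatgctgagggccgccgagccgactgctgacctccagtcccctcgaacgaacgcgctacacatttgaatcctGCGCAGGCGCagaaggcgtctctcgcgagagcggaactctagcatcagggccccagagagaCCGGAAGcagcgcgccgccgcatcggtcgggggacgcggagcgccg
Mrpl2, chr17:46645971-46646270, plus strand: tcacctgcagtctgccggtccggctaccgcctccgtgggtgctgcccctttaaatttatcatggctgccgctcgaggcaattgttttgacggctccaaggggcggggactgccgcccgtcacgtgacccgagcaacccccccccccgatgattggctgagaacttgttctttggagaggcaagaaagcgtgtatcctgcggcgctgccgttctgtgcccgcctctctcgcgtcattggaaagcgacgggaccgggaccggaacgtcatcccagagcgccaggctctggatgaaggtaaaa
Mrps25, chr6:92183974-92184273, minus strand: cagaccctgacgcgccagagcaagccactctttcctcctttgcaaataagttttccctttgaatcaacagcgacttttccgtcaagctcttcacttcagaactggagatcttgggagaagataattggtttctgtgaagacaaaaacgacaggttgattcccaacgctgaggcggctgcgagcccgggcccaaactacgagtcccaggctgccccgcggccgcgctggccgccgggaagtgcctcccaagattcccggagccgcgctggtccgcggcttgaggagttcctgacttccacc

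The ETS letters stood in 24 of the 69 member windows (34.8%) and in 16.4% of the 12057 windows of all genes in the comparison. The NRF1 letters stood in 13 member windows (18.8%) and in 9.46% of all windows, and the YY1 letters in 12 member windows (17.4%) and 4.21% of all. At least 1 of the 3 motifs stood in 41 member windows (59.4%) and in 26.8% of all, and no member window had motifs that overlap each other. The median log2 ratio was -0.089 for the members with a motif and -0.067 for those without. Medians with and without were -0.11 and -0.079 for NRF1 and -0.10 and -0.077 for ETS. For YY1 they lay the other way, at -0.069 with and -0.089 without. These differences were not tested. The window of Mrps25, the member with the highest ratio, held none of the 3, and neither did those of Mrpl2 and Mrpl48, which are among the 11 lower members with an unadjusted p under 0.05. The window of Mrpl52 held the ETS letters at 2 places. A match describes letters and not a bound site. The genes for the factors had means of 22.0 in mutant against 23.2 in control molars for Nrf1, 47.8 in mutant against 41.9 in control molars for Gabpa, and 79.7 in mutant against 78.8 in control molars for Yy1, none of which passed.

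Of the 29 small subunit genes, 22 had a lower mean in the mutant, with a median log2 ratio of -0.094. Of the 49 large subunit genes, 38 had a lower mean, with a median of -0.077. The difference of the medians, small minus large, was -0.017. The SD of log2 ratios among genes was 0.14 in the small and 0.10 in the large subunit. An unadjusted p under 0.05 was reached by 4 small (13.8%) and 7 large subunit genes (14.3%), all lower. At that p 9.4% of all genes were lower, and 13.1% of those at or above the median level. Genes are not replicates, so the difference between the subunits has no test. Both medians turned positive, to 0.043 and 0.061, after division by total signal, while a scaling leaves their difference as it is. With the 10 most abundant genes left out of the total they were -0.084 and -0.067. The difference was -0.057 once that trend was taken off, and -9.3e-05 without members that share exonic bases or have a pseudogene copy. The symbols do not fully match the structure, because Mrps30 and Mrps18a encode proteins of the large subunit and Mrps36 encodes a protein later assigned to the oxoglutarate dehydrogenase complex. With genes placed by structure the difference was -0.016, and with the 5 subunits of other symbols also added it was -0.0090.

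Within the small subunit, the 17 genes of bacterial families had a median log2 ratio of -0.094 and the 9 added in mitochondria -0.092. Within the large subunit placed by structure, the 31 genes of bacterial families had a median of -0.058 and the 20 mitochondrial additions -0.11. In both subunits together, 7 of the 29 mitochondrial additions and 4 of the 48 genes of bacterial families were lower at an unadjusted p under 0.05, beside 9.4% of all genes and 13.1% of those at or above the median level, and none passed the threshold. These are 24.1% of the additions and 8.33% of the bacterial families. Of the 7 additions, Mrps34, Mrpl43 and Mrpl48 share exonic bases with another listed gene, while the 4 of bacterial families do not. After the trend was subtracted, the medians in the large subunit were 0.0086 for bacterial families and -0.028 for the additions, and in the small subunit -0.039 and -0.084. At a recomputed unadjusted p under 0.05, 6 members were then lower, beside 6.47% of the protein-coding genes in the trend. They were the additions Mrpl57, Mrpl48 and Mrps30, and Mrpl30, Mrpl33 and Mrps9 of bacterial families.

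Mrps18a, Mrps18b and Mrps18c encode 3 relatives of the same bacterial protein, of which the first sits in the large and the others in the small subunit. Mrps18b had means of 11.4 in mutant against 13.0 in control molars, Mrps18c had 8.87 in mutant against 10.0 in control molars, and Mrps18a had 18.1 in mutant against 19.0 in control molars. Their log2 ratios were -0.20, -0.18 and -0.071, with adjusted p-values of 0.374, 0.481 and 0.690 in the authors' deposited table. The log2 ratio of Mrps18a turns positive after division by total signal, and stays at -0.061 with the 10 most abundant genes left out of the total. After the trend was subtracted the log2 ratios were -0.11 for Mrps18b, -0.20 for Mrps18c and 0.0086 for Mrps18a. Mrps30 stood at 16.9 in mutant against 18.2 in control molars, and Mrps36 at 13.0 in mutant against 14.6 in control molars (adjusted p = 0.657 and 0.490 in the authors' deposited table).

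The stalk of the large subunit, which recruits translation factors, was represented by Mrpl12 and Mrpl10. Mrpl12 had means of 38.6 in mutant against 43.5 in control molars (adjusted p = 0.413), and Mrpl10, which anchors it, 33.9 in mutant against 34.8 in control molars (adjusted p = 0.825 in the authors' deposited table). Mrpl58, a member of the release factor family built into the large subunit, had 22.4 in mutant against 24.3 in control molars (adjusted p = 0.565 in the authors' deposited table). Mrpl17, of a bacterial family, had 36.2 in mutant against 40.0 in control molars (adjusted p = 0.413 in the authors' deposited table). Mrpl1, of the opposite stalk, and Mrpl47 had log2 ratios of 0.031 and 0.0079, and that of Mrpl1 was -0.15 after the trend was subtracted. None of these genes passed, and the log2 ratios of Mrpl10, Mrpl58 and Mrps30 turn positive after division by total signal. They stay at -0.028, -0.11 and -0.094 with the 10 most abundant genes left out of the total. After the trend was subtracted the log2 ratios were 0.080 for Mrpl10, -0.035 for Mrpl58 and -0.27 for Mrps30. That of Mrpl12 was -0.17 before and -0.015 after subtraction, and that of Mrpl17 was -0.14 before and after.

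The log2 ratios of the members followed transcript length and GC content, as did those of other protein-coding genes. Over the 78 members, Spearman's rho with exonic length was 0.31 and with transcript GC content -0.36. These are descriptions over genes that share the same libraries. The 39 shorter members (exonic length up to 2394 bases) had a median log2 ratio of -0.11 with 34 lower, and the 39 longer members -0.055 with 26 lower. Of the 11 members with an unadjusted p under 0.05, 8 were among the shorter. These are 20.5% of the shorter members, beside 7.69% of the longer. The same rule took 9.4% of all genes as lower, and 13.1% of those at or above the median level. The median exonic length was 2394 bases for the members and 4593 for protein-coding genes whose larger group mean is 1 or more. When the trend on GC content and length over those 13128 genes was subtracted, the members' median log2 ratio was -0.021 against 0.0071 over those genes, and 46 of 78 members were lower (59.0%), against 48.4% of those genes. The trend took 18.1% of the variance of the log2 ratio. Under this subtraction the median was -0.068 in the small and -0.011 in the large subunit. The members' rho with length then had the other sign, -0.38, and that with GC content was 0.42. Mrps34 then had a log2 ratio of -0.16, Mrpl52 -0.062 and Mrpl54 -0.094, whereas Mrpl30 had -0.26, close to its -0.25 before. Mrps12 had -0.073 and Mrpl43 -0.0020, against -0.26 and -0.19 before. No member passed after subtraction (lowest adjusted p recomputed from the authors' values 0.194, for Mrpl30), while 28 of the 13128 genes did (0.213%). At a recomputed unadjusted p under 0.05 there were 6 lower members of 78, beside 6.47% of the 13128 genes on the lower side. Of these members 3 were among the earlier 11 (Mrpl30, Mrpl57 and Mrpl48) and 3 were not (Mrpl33, Mrps9 and Mrps30). The 1 higher member was Mrps15, with a log2 ratio of 0.29 after and 0.15 before subtraction.

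**Figure D3:**
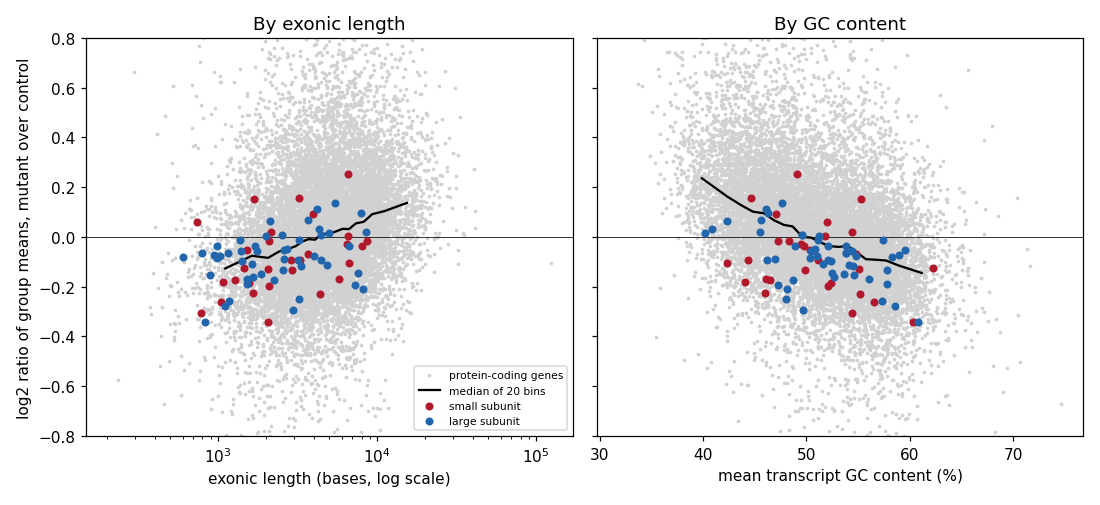
Log2 ratio of the authors' group means, mutant over control, against exonic length (left, log axis) and mean transcript GC content (right) for small subunit genes (red), large subunit genes (blue) and protein-coding genes whose larger group mean is 1 or more (grey), with the median in 20 bins as a line. The vertical axis is limited to 0.8 on either side; members lie lower at short lengths and high GC, with rho of 0.31 and -0.36 over the 78 members.

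Neighbouring genes were considered for the members' own values. The exons of 25 members share bases with another listed gene, and 3 members have a pseudogene copy in the table. Mrpl23-ps1, the copy with the highest mean, had a log2 ratio of -0.20, beside -0.11 for Mrpl23, and how reads were split between them is uncertain. Without the 27 members of either kind, 39 of 51 were lower and the median log2 ratio was -0.081. At 23 members a protein-coding gene on the opposite strand starts within 1000 bases upstream, or overlaps the member's start by at most 200 bases. Of these members 19 had a lower mean, and of their partners 13 did. Mrps12 and its partner Sars2, the mitochondrial seryl-tRNA synthetase gene, had log2 ratios of -0.26 and -0.22. Mrps34 and its partner Eme2 had -0.34 and 0.016, and Mrpl57 and its partner Ska3, a kinetochore gene, -0.29 and 0.48. The 1 partner past the threshold was Fau, which encodes a cytosolic ribosomal protein and starts beside Mrpl49, with 293.4 in mutant against 398.2 in control molars (adjusted p = 0.0391 in the authors' deposited table). Mrpl49 itself stood at 20.6 in mutant against 22.8 in control molars (adjusted p = 0.540 in the authors' deposited table).

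Other genes of mitochondrial translation were described from lists taken from general knowledge. None of their members passed the threshold in either direction. Of the 5 further subunits measured, 3 had lower means, with a median log2 ratio of -0.084 that turns positive after division by total signal. Aurkaip1 had 29.6 in mutant against 34.4 in control molars (adjusted p = 0.198), Ptcd3, which binds RNA in the small subunit, had 16.5 in mutant against 12.5 in control molars (adjusted p = 0.221), and Gadd45gip1 27.8 in mutant against 29.5 in control molars (adjusted p = 0.540 in the authors' deposited table). Among 28 assembly and rRNA modification genes, 19 had lower means, with a median of -0.13 that ends only just above 0 under that scaling. The scaling shifts every log2 ratio by 0.14, and by 0.0097 with the 10 most abundant genes left out of the total. After the trend was subtracted the median was -0.049 for the assembly and rRNA modification genes and 0.022 for the further subunits. Mpv17l2, an inner membrane protein needed for ribosome assembly, had 19.8 in mutant against 24.5 in control molars (adjusted p = 0.125), Malsu1, a large subunit assembly factor, 10.3 in mutant against 12.8 in control molars (adjusted p = 0.155), and Mterf3 8.14 in mutant against 6.71 in control molars (adjusted p = 0.242 in the authors' deposited table). Log2 ratios before and after the trend was subtracted were -0.31 and -0.090 for Mpv17l2 and -0.30 and -0.39 for Malsu1. For Mterf3 they were 0.28 and 0.16. For Aurkaip1, Ptcd3 and Gadd45gip1 they were -0.22 and -0.035, 0.41 and 0.21, and -0.084 and 0.022.

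Among translation factors and mitochondrial tRNA synthetases, medians were above 0. Of 15 genes for translation factors and mRNA handling, 5 had lower means (median 0.13). Lrpprc, which stabilises mitochondrial mRNAs, had 30.7 in mutant against 24.2 in control molars (adjusted p = 0.113), the initiation factor gene Mtif2 11.8 in mutant against 9.14 in control molars (adjusted p = 0.128), and Oxa1l, which inserts new proteins into the inner membrane, 41.2 in mutant against 48.4 in control molars (adjusted p = 0.150 in the authors' deposited table). Among 17 mitochondrial tRNA synthetases 5 had lower means (median 0.042), and Tars2, Rars2 and Aars2 had the lowest p-values, with log2 ratios of 0.33, 0.35 and 0.24. These genes are also longer, with median exonic lengths of 3868 bases for the factors and 5460 for the synthetases, and their medians after the trend was subtracted were 0.047 and 0.025. The median of 19 genes for mitochondrial transcription and its nuclear regulators was 0.0020, and Pprc1, a coactivator of such genes, had 34.4 in mutant against 42.6 in control molars (adjusted p = 0.0900), followed by Gabpa and Tfb2m (adjusted p = 0.191 and 0.238 in the authors' deposited table).

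The RNAs made inside mitochondria stood on the other side. All 15 mitochondrially encoded genes had higher means in the mutant. Division by total signal raises every log2 ratio, so it could not have changed that side. An unadjusted p under 0.05 was reached by 10 of them (66.7%), but none passed. At that p 9.89% of all genes were higher, and 11.5% of those at or above the median level. The ribosomal RNAs had 184.9 in mutant against 137.4 in control molars for mt-Rnr1 (adjusted p = 0.443) and 548.9 in mutant against 452.1 in control molars for mt-Rnr2 (adjusted p = 0.724 in the authors' deposited table). Among the mRNAs, the lowest p-values belonged to mt-Nd3, with 247.7 in mutant against 130.8 in control molars (adjusted p = 0.0922), mt-Atp8, with 691.9 in mutant against 164.1 in control molars (adjusted p = 0.102), and mt-Atp6, with 3294 in mutant against 1692 in control molars (adjusted p = 0.111 in the authors' deposited table). These genes are short and poor in GC (median 36.0%), and the median log2 ratio of the 13 mRNAs was 0.61 before and 0.21 after the trend was subtracted. How mRNA was selected for these libraries is not given in the sources used here.

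**Figure D4:**
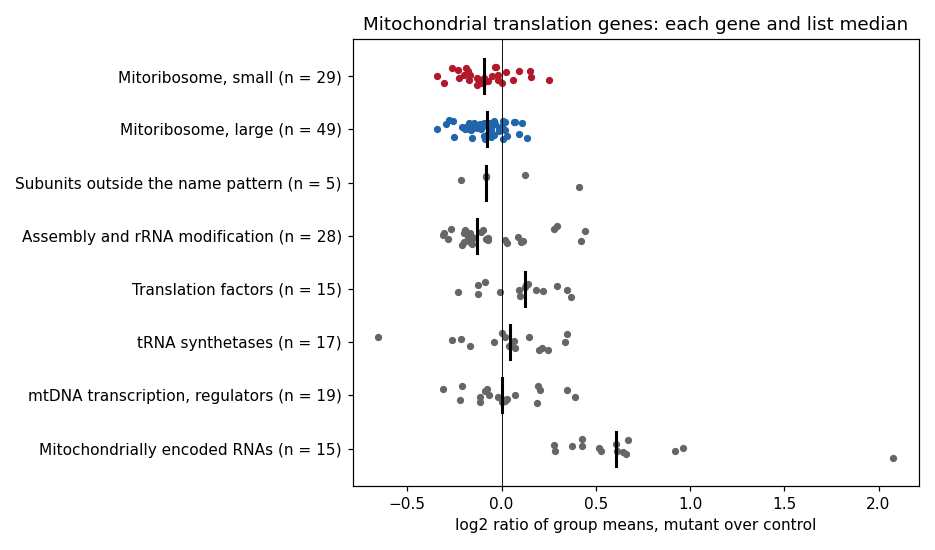
Log2 ratio of the authors' group means, mutant over control, for each gene of the mitochondrial ribosome and of 6 related lists (points) with the median of each (vertical bars). The 2 subunits have medians of -0.094 and -0.077, which turn positive after division by total signal, the translation factors 0.13 and the mitochondrially encoded RNAs 0.61, and no gene shown passed an adjusted p of 0.05. With the 10 most abundant genes left out of that total, the subunit medians are -0.084 and -0.067.

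Other large complexes had lower means as well on the deposited scale, and their differences from the mitochondrial ribosome were not tested. Of 81 cytosolic ribosomal protein genes, taken by symbols that start with Rpl or Rps and so without Fau, 79 had a lower mean, with a median log2 ratio of -0.25, and 59 had an unadjusted p under 0.05 on the lower side. After division by total signal, which adds 0.14 to every log2 ratio, that median stays below 0. Those of the next 2 sets rise above 0, the respiratory one only just. The shift is 0.0097 with the 10 most abundant genes left out of the total. For 82 nuclear genes of the respiratory chain and ATP synthase the median was -0.13, with 70 lower and 28 at an unadjusted p under 0.05. For 38 proteasome genes it was -0.079, with 27 lower and 11 at an unadjusted p under 0.05, all 11 lower. Low p-values on the lower side thus took 72.8%, 34.1% and 28.9% of the 3 sets. The same rule took 9.4% of all genes as lower, and 13.1% of those at or above the median level. No gene of these 3 sets passed, Fau being outside them. Median exonic lengths were 1739, 1578 and 2814 bases. After the trend was subtracted the medians were -0.17, -0.043 and -0.081, beside -0.021 for the mitochondrial ribosome.

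Markers of several cell types differed in mean in the same comparison, and their part in the values above was not tested. In these bulk samples, fewer cells of a type and less RNA per cell cannot be told apart. All 6 measured erythroid genes of 7 had lower means, of which Hba-a1 passed, summing to 424.6 in mutant against 944.2 in control molars. Of 6 ameloblast genes 5 had lower means, summing to 177014 in mutant against 260990 in control molars. Of 10 skeletal muscle genes 8 had lower means, and they were near 0, summing to 5.36 in mutant against 8.02 in control molars. All 7 measured osteoclast genes of 8 had lower means, summing to 154.4 in mutant against 182.9 in control molars. All 5 odontoblast genes had lower means, summing to 9219 in mutant against 10665 in control molars, and most of that difference lay in Bglap, at 1252 in mutant against 2234 in control molars (adjusted p = 0.0484 in the authors' deposited table), which is also a gene of bone-forming cells, while Dspp and Phex had log2 ratios of -0.068 and -0.0078. Of 5 genes of dental mesenchyme, Runx2 itself was lower and the other 4 had higher means, summing without Runx2 to 288.5 in mutant against 247.5 in control molars. Prrx1 passed among them, at 79.4 in mutant against 49.0 in control molars (adjusted p = 0.0474 in the authors' deposited table). All 8 cell cycle genes had higher means, of which Mki67 and Cenpf passed, summing to 229.7 in mutant against 167.7 in control molars.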

How the data were processed

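Per the labels, RNA was isolated from the apical part of lower first molars in 4 mutant and 4 control libraries, numbered 2 to 5 in both groups. The submitters' processing notes list STAR 2.6.1d, Partek and mm10. How genes were annotated, counted, normalised and modelled was not given in the sources. Per the file headers, the authors deposited least-squares group means of normalised signal on a linear scale, p-values, a step-up FDR, the ratio of the means and a signed fold score. The deposited adjusted p equals the Benjamini-Hochberg adjustment over 17631 genes, and the deposited total is 4 times the sum of both group means. Without values per library no model could be fitted: the authors' p-values were used, and they reflect only how these libraries vary, which can be technical, since the labels do not tie a library to 1 animal. Depth per library is unknown.

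Log2 ratios, medians and counts were computed with pandas 2.3.3. Positions, exonic length (union of exons) and GC content (mean over transcripts) came from GENCODE M21 on GRCm38, the assembly mm10 names, matched by symbol for 17562 genes and for all 78 members. The trend was fitted with mgcv 1.9.3 (R 4.3.3) as smooth terms of GC content and log2 length on the log2 ratio and on the signed z from the p-value, in 13128 protein-coding genes whose larger group mean is 1 or more, and was checked on simulated data. It treats the whole trend as unwanted. Members, lists and tests were chosen with earlier results of these data known. Genes named were the 8 members with the lowest p in each direction, the 5 with the highest and 3 with the lowest mean, members of known role, and 3 genes per list; other genes were added after their values were seen. Alternatives covered the threshold, the genes adjusted over, scaling, low means, a pseudocount of 1, subunit placement and the trend.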

Additional observations from a re-analysis of the deposited data

How the results depend on the processing

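No member passed in either direction under the authors' adjusted p of 0.05, nor when p-values were adjusted again over genes with a mean of at least 1, over protein-coding genes, or after the trend was subtracted. On the lower side 1 member was called at an adjusted p of 0.1, 7 at 0.2 and 11 at an unadjusted p of 0.05, and none on the higher side at these thresholds. Division by the total signal gave 24 lower members and medians of 0.054 (members), 0.043 (small subunit) and 0.061 (large subunit); with the 10 most abundant genes left out of the total the members' median was -0.074. Subtracting the trend gave medians of -0.021 for the members and -0.011 for the large subunit and a difference, small minus large, of -0.057. That difference was -0.0090 with genes placed by structure and the 5 subunits of other symbols added, -0.016 with placement alone (chosen after seeing the data), and -9.3e-05 without members that share exonic bases or have a copy, an alternative chosen after seeing the data that left 39 of 51 lower. Low-mean filters, centring on the median and the pseudocount kept every family count and median within 1.5 times its value. Of the 27 members named by the rules above, 4 changed sign under division by total signal and 5 under the trend. Leaving out libraries was not run, because the table has group means only. No paired analysis was possible because the columns carry no replicate numbers. The missing depth per library limits all values.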
